A study of Mus musculus with 6 samples.

Results

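Hard keratins and keratin-associated proteins are the 2 gene families whose products build the hair shaft, and their 67 genes were compared between mouse penile tumors and normal penile epithelium. The members were chosen by name, with earlier results of these data known: every gene symbol beginning with Krtap, which gave 52 genes, and the 15 hard keratin genes Krt31, Krt32, Krt33a, Krt33b, Krt34, Krt35, Krt36, Krt39, Krt40, Krt81, Krt82, Krt83, Krt84, Krt85 and Krt86, out of 24063 symbols in the count files. RNA sequencing was performed on penile tumors of 3 SA mice and on 3 penile epithelium samples of WT mice, each 5 months old. SA mice are PB-Cre+ Smad4L/L ApcL/L, with the driver line PB-Cre4, so that Cre under an androgen-responsive probasin promoter is directed against both floxed alleles of Smad4 and of Apc in androgen receptor-expressing epithelium, and their tumors arose without carcinogen. WT mice were C57BL/6 animals of wild type genotype, and the labels name no Cre or floxed allele for them. The question was how the transcriptome of the tumor differs from that of the normal tissue.

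Hard keratins are the cysteine-rich keratins of hair, nail and the filiform papillae of the tongue, and they pair as type I (the Krt30s and Krt40) with type II (the Krt80s) into filaments. Keratin-associated proteins, encoded by Krtap genes, form the matrix around those filaments and are cross-linked to them by disulfide bonds. They are divided by composition into high glycine-tyrosine, high sulfur and ultrahigh sulfur proteins, and the number before the hyphen in a Krtap symbol names its subfamily. The mouse glans penis carries small keratinized spines, so that the normal tissue also has an appendage of hard, cornified epithelium.

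Gene counts summed to between 23828283 and 32871142 in 5 libraries and to 110509147 in SA tumor replicate 3, 4.42 times the median of the others. A count of 3, taken as the lowest level that can be told from 0, corresponded to between 0.0244 and 0.137 normalized counts per 1000000 counts (CPM), which covers counting error only. The basal keratinocyte keratins Krt5 and Krt14 were high in all 6 libraries, with a lowest value of 3071 CPM. Their levels were not equal, since Krt5 was lower in SA tumors (log2 fold change -1.21, adjusted p = 7.35e-05). Krt14 had a log2 fold change of -0.49 (adjusted p = 0.0504). Smad4 stood at 36.6, 36.1 and 46.1 CPM in the 3 SA tumors and at 61.2, 69.7 and 72.5 CPM in the 3 WT penises, a log2 fold change of -0.77 (adjusted p = 0.00114). Apc stood higher in the tumors, at 253, 194 and 197 CPM against 62.5, 85.3 and 91.1 CPM (log2 fold change 1.43, adjusted p = 0.000185). These counts cover whole transcripts, and therefore do not check the loss of single exons.

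Most hard keratin and Krtap genes were expressed at much lower levels in SA tumors than in WT penis. Of the 67 genes, 47 passed the filter on low counts and were tested (14 hard keratins and 33 Krtap genes). Among these, 35 fell and 3 rose past both thresholds, an adjusted p under 0.01 and a change of 4-fold or more. Over all 16336 genes tested, 3.59% fell and 9.41% rose past the same thresholds. The other 9 tested members passed one threshold or neither. The median log2 fold change was -3.75 over the tested members and 0.03 over all genes tested. Each of the 35 genes was lower in all 9 pairs of an SA tumor and a WT penis. Genes that pass both thresholds with 3 samples per group are likely to separate in this way, so it is no further support. The share of all genes tested that separate was not counted.

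Summed over the 67 genes, the level was 1207, 942 and 420.3 CPM in SA tumor replicates 1, 2 and 3. The same sum was 15913, 14075 and 10843 CPM in WT penis replicates 1, 2 and 3. The groups lay far apart, with a mean of 857 ± 400.4 CPM in tumors and of 13610.3 ± 2566.5 CPM in normal tissue (SD, n = 3 each), which is 15.9 times as much. As a share of all counts, the members took 0.133, 0.103 and 0.0468% of the tumor libraries and 1.41, 1.28 and 0.999% of the normal ones. The summed level of the Krtap genes was 29.3 times as high in normal tissue and that of the hard keratins 11.9 times. These 2 folds were not tested against each other, and the median log2 fold changes of the tested genes were close, at -3.82 and -3.64. By chromosome, the Krtap sum was 53.8 times as high in normal tissue for chromosome 16 and 11.8 times for chromosome 11.

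Both groups had their lowest values in replicate 3. SA tumor replicate 3, the deepest library, was the lowest of the 3 tumors in all 47 tested members, and WT penis replicate 3 was the lowest normal sample in all 35 genes that fell. The highest tumor was replicate 2 for 25 of these 35 genes and replicate 1 for the other 10. Without SA tumor replicate 3, 35 genes fell and 6 rose. In tissue RNA, fewer cells of a type and less RNA per cell cannot be told apart, and this holds for every level given here.

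**Figure D1:**
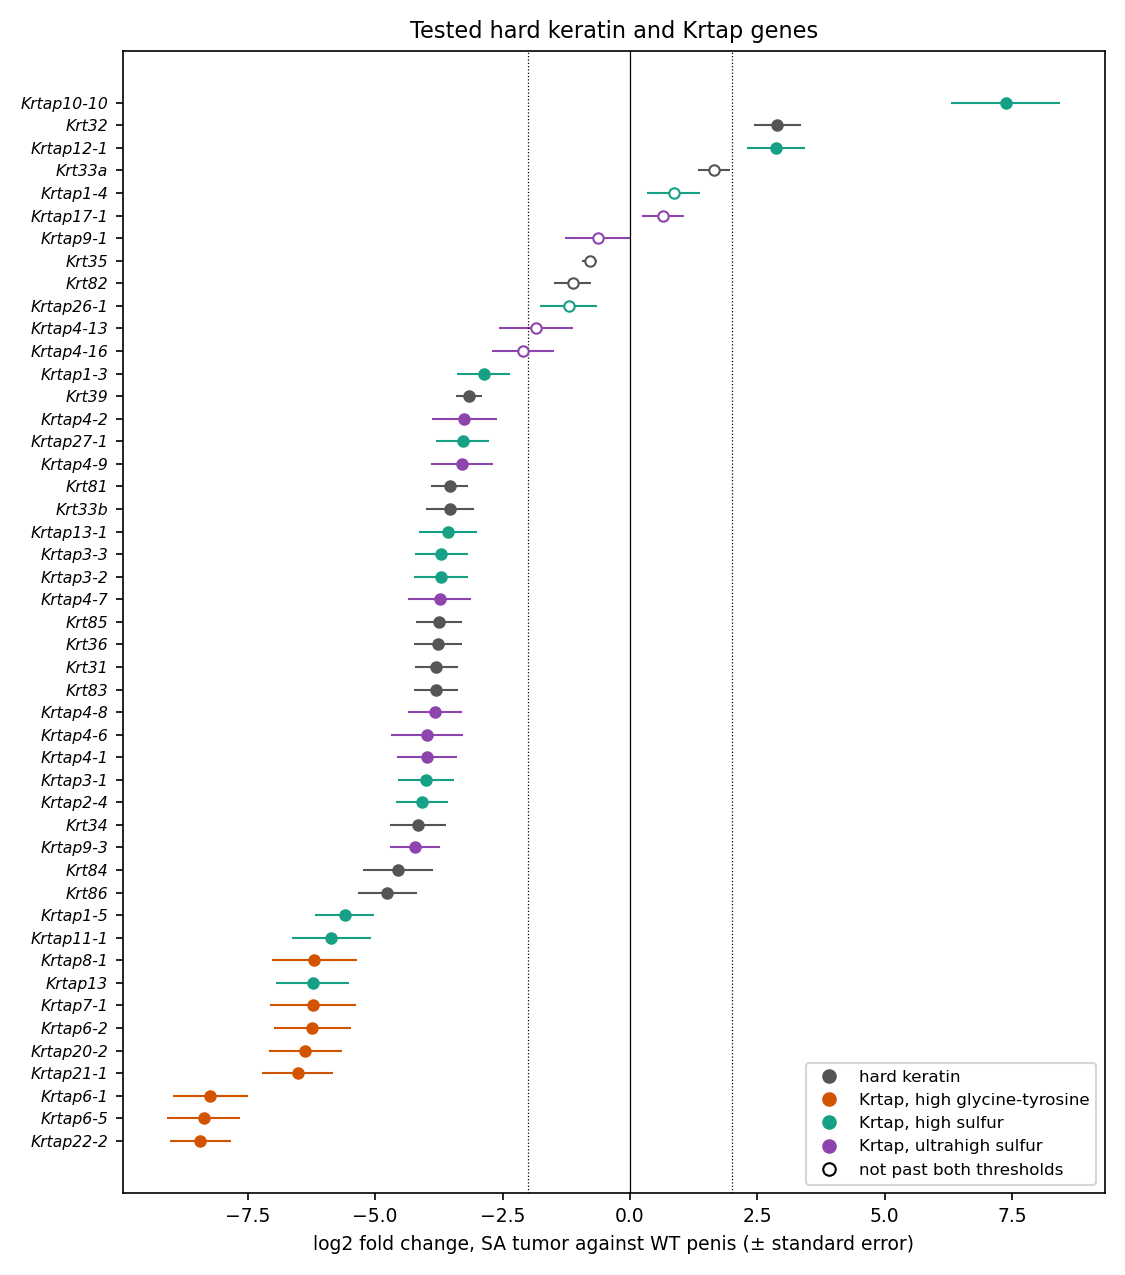
Log2 fold change of each of the 47 tested members in SA tumor against WT penis (x axis), with bars of ± 1 standard error, n = 3 per group; dotted lines mark a fold change of 4, colors mark the gene class and open circles are members that did not pass both thresholds. The high glycine-tyrosine Krtap genes lie between -8.43 and -6.19, below all of the hard keratins, and 3 members lie to the right of the upper dotted line, where the position of Krtap10-10 depends on the prior count because its WT counts are 0. The position of Krtap20-2 is uncertain because its tumor counts are 1, 1 and 0.

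The high glycine-tyrosine genes had the steepest falls of the 3 Krtap classes. These small proteins, of the Krtap6, Krtap7, Krtap8, Krtap19, Krtap20, Krtap21 and Krtap22 subfamilies, are known from the cortex of the hair shaft. Of 13 members of the class, 8 were tested and all 8 fell, with log2 fold changes from -8.43 to -6.19 and a median of -6.44. Their summed level was 36.1, 63.6 and 8.38 CPM in SA tumors and 3842, 3169 and 2412 CPM in WT penises, 87.2 times as much. The difference between the folds of the classes was not tested. Krtap16 and Krtap31, with 4 members, were placed in no class, and none of them was tested.

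Krtap22-2 had the largest fall of the tested members. It was at 0.297, 0.993 and 0.154 CPM in SA tumors and at 161, 126 and 97.9 CPM in WT penises. The highest tumor was thus far under the lowest normal sample, and SA tumor replicate 2 held most of what remained. The log2 fold change was -8.43 ± 0.61 (SE, adjusted p = 6.18e-05), or 344-fold lower.

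Krtap6-1 lies 20.9 kb from Krtap22-2 on chromosome 16. Its level was 1.15, 1.95 and 0.252 CPM in SA tumors and 331, 278 and 221 CPM in WT penises. No tumor came near a normal sample, and the log2 fold change was -8.23 ± 0.73 (SE, adjusted p = 0.000199). Krtap6-5, a further 14.996 kb away, was at 0.743, 1.66 and 0.227 CPM against 295, 233 and 171 CPM, and fell by 8.37 on the log2 scale (adjusted p = 0.000165). The order of the 3 tumors was the same in all 3 of these genes, with replicate 2 highest and replicate 3 lowest. The third tested member of the subfamily, Krtap6-2, fell by 6.24. Of the 76-base windows of the Krtap6-1 transcript, 24.1% also occur in another gene, so that its reads may be split between genes, whereas Krtap22-2 shares no such window.

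The sequences before the start sites of Krtap22-2 and Krtap6-1 are shown because these neighbours moved together and had 2 of the 3 largest falls. They are the 250 bases upstream of the RefSeq start (GRCm38.p6, the build called mm10) at chr16:89010760-89011009, minus strand, and chr16:89031449-89031698, plus strand, 5′ to 3′. Capitals mark TATAAA, the core of the TATA box that positions RNA polymerase II.
Krtap22-2: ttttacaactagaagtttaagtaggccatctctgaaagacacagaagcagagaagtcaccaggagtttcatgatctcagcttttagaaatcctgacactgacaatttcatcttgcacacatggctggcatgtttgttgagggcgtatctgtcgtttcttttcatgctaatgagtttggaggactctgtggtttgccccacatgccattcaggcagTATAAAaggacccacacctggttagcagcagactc
Krtap6-1: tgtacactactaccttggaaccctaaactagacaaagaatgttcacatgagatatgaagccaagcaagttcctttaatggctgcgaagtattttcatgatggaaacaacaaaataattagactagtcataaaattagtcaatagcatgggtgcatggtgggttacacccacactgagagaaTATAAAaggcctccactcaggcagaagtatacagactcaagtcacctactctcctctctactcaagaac
The capitals begin 35 bases before the start in Krtap22-2 and 69 bases before it in Krtap6-1.

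The most abundant Krtap genes of normal tissue belonged to the same class. Krtap7-1, on chromosome 16 at 89507703 to 89508323, was at 12.003, 19.7 and 2.27 CPM in SA tumors and at 981, 865 and 636 CPM in WT penises. The 3 tumors held a mean of 1.37% of the normal level, and the log2 fold change was -6.23 ± 0.84 (SE, adjusted p = 0.00121). Its neighbour Krtap8-1 was at 10.2, 19.2 and 2.20 CPM against 920, 735 and 599 CPM, and fell by 6.19 on the log2 scale (adjusted p = 0.00123). Again SA tumor replicate 3 held the least and replicate 2 the most. Both calls were lost when SA tumor replicate 1 was left out, with log2 fold changes of -6.30 and -6.20. Krtap21-1 stood at 5.98, 10.5 and 1.91 CPM against 663, 556 and 408 CPM, a log2 fold change of -6.52. Krtap20-2 was scarce in both tissues, with at most 1.49 CPM, and fell by 6.37. It had 1, 1 and 0 counts in SA tumors, each under the floor of 3 counts, so that the size of this fall is uncertain. None of the 5 Krtap19 genes had enough counts to be tested, and Krtap19-5, with 23, 28 and 9 counts in WT penises and 0, 6 and 0 counts in SA tumors, had the most.

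High sulfur Krtap genes fell as well, less steeply for most. Of 18 members, 14 were tested, 10 fell, 2 rose and 2 did neither, with a median log2 fold change of -3.63. Krtap13 was at 14.7, 11.6 and 2.58 CPM in SA tumors and at 815, 740 and 540.5 CPM in WT penises, a log2 fold change of -6.22 ± 0.72 (SE, adjusted p = 0.0006). Its levels in the 2 tissues did not overlap, although 19.3% of its windows also occur in other loci. Krtap11-1, a cortex protein gene, stood at 7.21, 8.67 and 1.22 CPM in tumors and at 388, 302 and 251 CPM in normal tissue, and fell by 5.86. The 3 Krtap3 genes lay close together, with log2 fold changes between -3.99 and -3.70, and Krtap2-4 fell by 4.08. Krtap13-1 fell by 3.57, Krtap27-1 by 3.28 and Krtap1-3 by 2.87, whereas Krtap26-1 had a log2 fold change of -1.20 (adjusted p = 0.107).

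Ultrahigh sulfur genes had the smallest median fall of the 3 classes. Of 17 members, 11 were tested, 7 fell and 4 did not pass both thresholds, with a median log2 fold change of -3.30. In the Krtap4 subfamily 6 of 8 genes fell, by 3.25 to 3.98 on the log2 scale. Krtap4-1, the most abundant of them, was at 6.76, 10.4 and 2.28 CPM in SA tumors and at 104, 122 and 69.8 CPM in WT penises, without overlap. Of the other two, Krtap4-16 with -2.10 (adjusted p = 0.0247) missed the threshold on the p-value, and Krtap4-13 with -1.84 (adjusted p = 0.0597) missed both. Krtap9-3 fell by 4.22, and Krtap9-1 had a log2 fold change of -0.63 (adjusted p = 0.439). Krtap17-1 had 296, 335 and 482 counts in tumors, which are between 3.91 and 11.1 CPM, and was at 6.74, 5.98 and 3.69 CPM in normal tissue, so that its groups overlapped (log2 fold change 0.65, adjusted p = 0.223). The calls of Krtap1-3, Krtap4-2, Krtap4-6, Krtap4-7 and Krtap4-9 were lost when SA tumor replicate 1 or any 1 of the 3 WT penises was left out. They were kept without SA tumor replicate 2 or 3. Those of Krtap4-1 and Krtap3-2 were lost without WT penis replicate 2, that of Krtap4-1 also without SA tumor replicate 1, and that of Krtap13-1 without WT penis replicate 2 or 3.

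By position, the Krtap genes of chromosome 16 fell more than those of chromosome 11. The 23 genes of chromosome 16, spread over 0.960 Mb (88610709 to 89571183), included 13 that were tested, of which 12 fell, with a median log2 fold change of -6.23. The 21 genes of chromosome 11, within 0.444 Mb (99550132 to 99993994), included 18 that were tested, of which 13 fell, with a median of -3.70. This difference was not tested, and it coincides with the class, since all tested high glycine-tyrosine genes lie on chromosome 16. The 5 Krtap5 genes of chromosome 7 were too low to be tested. On chromosome 10, the 2 tested genes were higher in tumors.

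**Figure D2:**
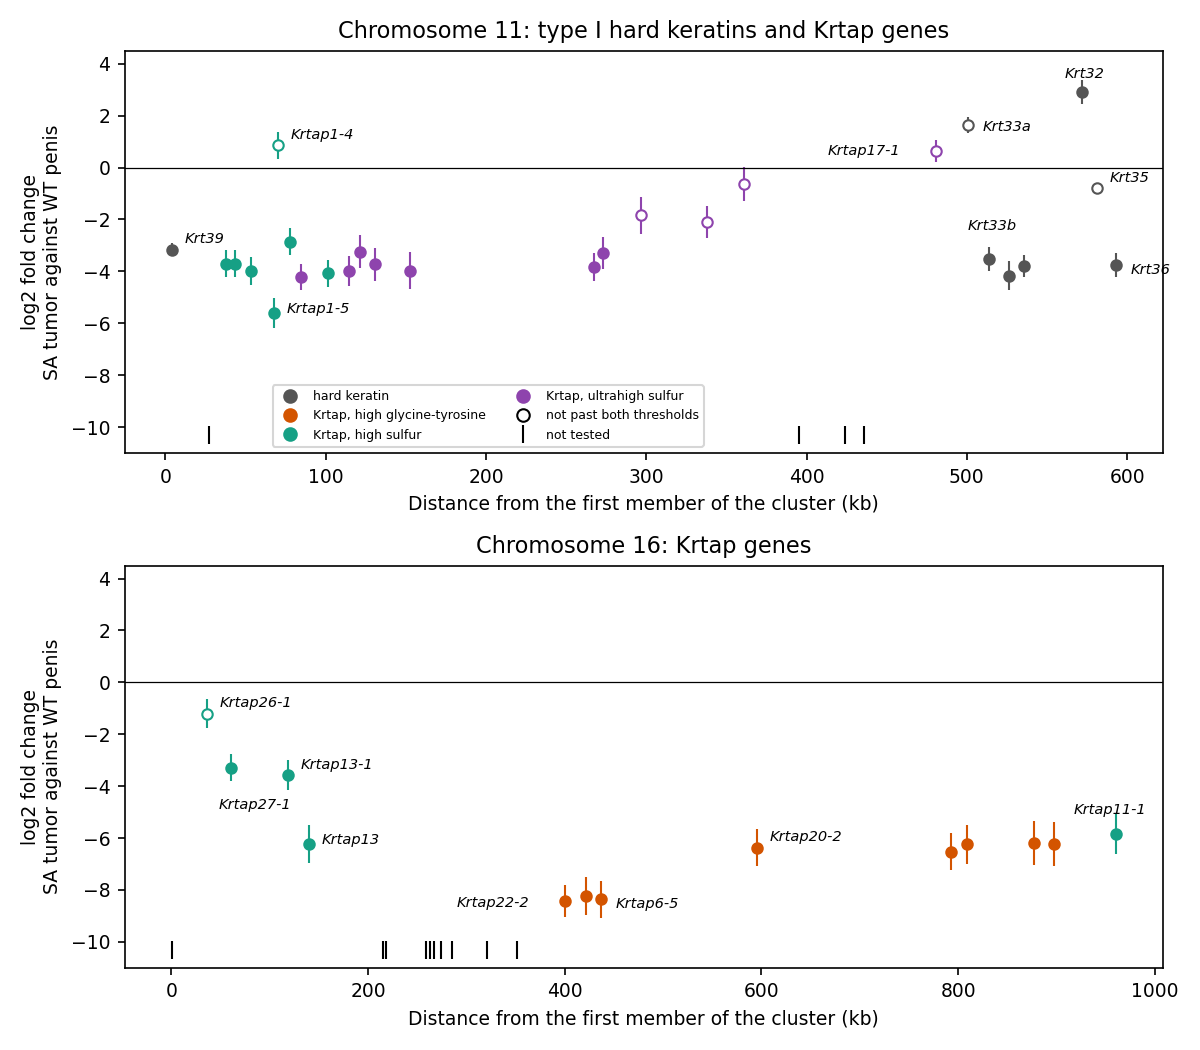
Log2 fold change in SA tumor against WT penis (y axis, ± 1 standard error) of each member on chromosome 11 (upper panel) and chromosome 16 (lower panel) by its distance in kb from the first member of that cluster. Filled circles passed both thresholds, open circles did not, and short vertical lines near the bottom mark members that were not tested; Krtap1-4 at 0.86 sits beside Krtap1-5 at -5.60, and Krt32 at 2.89 lies among hard keratins that fell.

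Of the 15 hard keratins, 10 fell and 1 rose. Among the type I genes, which lie on chromosome 11, 5 of 8 tested fell and 1 rose, and among the type II genes 5 of 6 fell. Most keratins of the hair cortex fell together, but Krt33a, described below, was higher in tumors. Krt31, a type I cortex keratin, was at 30.5, 36.5 and 12.4 CPM in SA tumors and at 399, 399.8 and 299 CPM in WT penises. Each tumor was under 10% of the mean normal level, and the log2 fold change was -3.80 ± 0.42 (SE, adjusted p = 0.000389). Krt33b, Krt34, Krt81, Krt83 and Krt86, which are also cortex keratins, fell by 3.54, 4.16, 3.53, 3.80 and 4.76 on the log2 scale. These 6 genes kept between 3.74 and 8.71% of their normal mean. Parts of their transcripts are near-identical, with 33.2% of the windows of Krt86 and 30.5% of those of Krt81 also found in other genes, so that their separate values are less certain than their common direction. The transcript that the files call Krt83 is listed by RefSeq as Krt87.

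Krt85, the type II keratin that appears earliest in the hair matrix, followed the cortex keratins that fell. Its usual type I partner Krt35 did so far less. Krt85 was at 55.9, 60.5 and 19.6 CPM in SA tumors and at 682, 641 and 498 CPM in WT penises (log2 fold change -3.75 ± 0.45 SE, adjusted p = 0.000557). Krt35 was at 77.3, 62.8 and 58.3 CPM against 137, 107 and 99.3 CPM. The tumors were again below each normal sample, but by 1.73-fold, under the threshold on the fold (log2 fold change -0.79 ± 0.15 SE, adjusted p = 0.00277). The ratio of Krt35 to Krt85 counts was 1.38, 1.04 and 2.98 in tumors and 0.201, 0.167 and 0.199 in normal tissue.

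Krt36 and Krt84, known from nail and from the filiform papillae of the tongue, were the most abundant hard keratins of WT penis. Krt36 was at 273, 119 and 88.6 CPM in SA tumors and at 2636, 2121 and 1767 CPM in WT penises, a log2 fold change of -3.77 ± 0.46 (SE, adjusted p = 0.000635). Krt84 was at 179.9, 44.8 and 40.6 CPM against 2363, 2088 and 1736 CPM, a log2 fold change of -4.55 ± 0.68 (SE, adjusted p = 0.00191). Replicate 1 was the highest tumor for both, unlike for 25 of the 35 genes that fell, and stood well above the other two for Krt84. Without WT penis replicate 2 the call of Krt84 was lost, at a log2 fold change of -4.57. Neither gene shares a 76-base window with another gene.

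The cuticle keratins did not move together. Krt32, a type I keratin of the hair cuticle, was at 28.1, 17.1 and 7.83 CPM in SA tumors and at 1.99, 2.74 and 2.32 CPM in WT penises. All 3 tumors were above all normal samples, and Krt32 rose 7.42-fold (log2 fold change 2.89 ± 0.46 SE, adjusted p = 0.00145). That call was lost when WT penis replicate 1 (2.77) or 3 (2.86) was left out. Krt82, the type II cuticle keratin, was at 5.76, 4.63 and 2.05 CPM in tumors and at 10.2, 8.91 and 7.52 CPM in normal tissue, with a log2 fold change of -1.13 (adjusted p = 0.0271). Krt39 fell by 3.16 on the log2 scale (adjusted p = 2.91e-05). Krt40 had 0, 5 and 11 counts in tumors and 0 in each WT penis, too few for a test or a fold.

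Krt33a, the close relative of Krt33b 7.42 kb away, was like Krt32 higher in tumors, unlike the 5 type I genes that fell. It was at 114, 82.4 and 51.3 CPM in SA tumors and at 29.8, 30.4 and 18.6 CPM in WT penises, so that each tumor lay above each normal sample. The 3.13-fold difference passed the threshold on the p-value but not that on the fold (log2 fold change 1.65 ± 0.32 SE, adjusted p = 0.00411). The ratio of Krt33a to Krt33b was 4.55, 2.67 and 5.65 in tumors and 0.106, 0.115 and 0.0936 in normal tissue, where 11.6% and 10.6% of their windows also occur in other genes. Over all tested members, 4 were higher and 36 lower in tumors at an adjusted p under 0.01 without regard to fold, where 20.1% and 17.5% of all genes tested were.

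**Figure D3:**
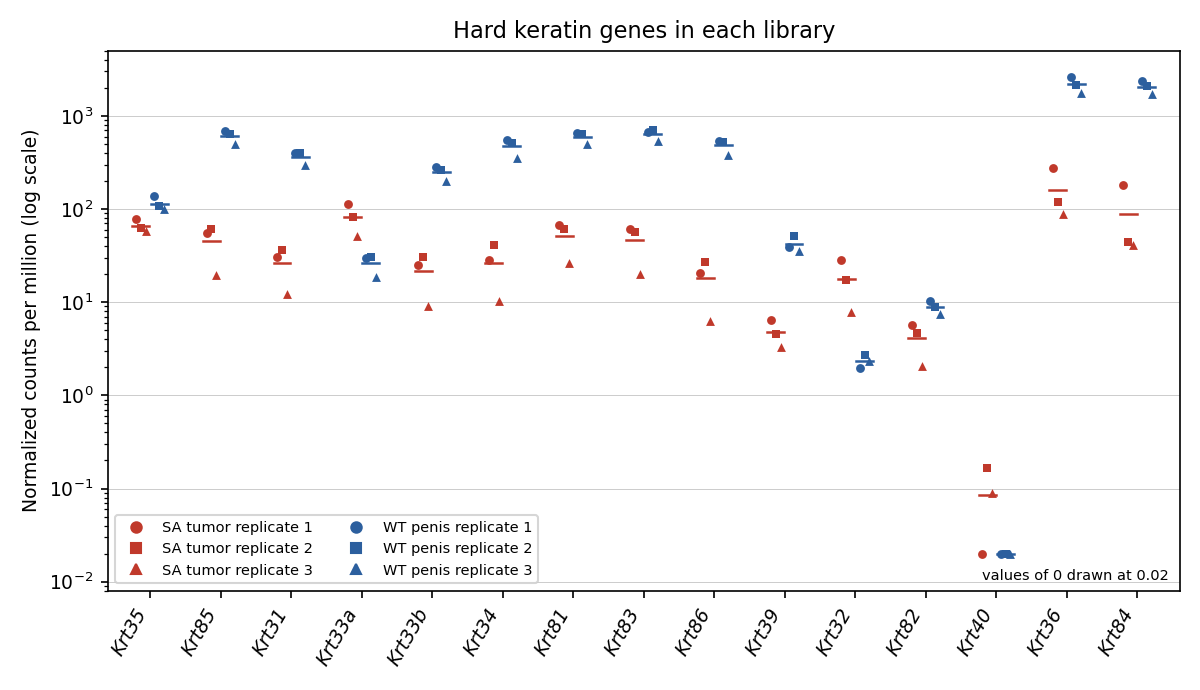
Normalized counts per 1000000 (CPM, y axis, log scale) of the 15 hard keratin genes in each of the 3 SA tumors (red) and 3 WT penises (blue), with symbols for replicates and bars for group means. For Krt33a and Krt32 the 3 tumors lie above the 3 normal samples, Krt40 is at or near 0 in all 6 libraries, and for the other 12 genes the 3 tumors lie below the 3 normal samples.

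The promoters of Krt31, which fell, and of its neighbour Krt32, which rose and lies 30.3 kb away, are shown for comparison. They are the 250 bases upstream of the RefSeq start at chr11:100050552-100050801 and chr11:100088270-100088519, both on the minus strand of GRCm38.p6, 5′ to 3′. Capitals mark TATAAA and the LEF1/TCF letters CTTTG followed by AA, AT, TA or TT, each read on either strand. LEF1 is the factor that carries Wnt signals to DNA in the hair cortex.
Krt31: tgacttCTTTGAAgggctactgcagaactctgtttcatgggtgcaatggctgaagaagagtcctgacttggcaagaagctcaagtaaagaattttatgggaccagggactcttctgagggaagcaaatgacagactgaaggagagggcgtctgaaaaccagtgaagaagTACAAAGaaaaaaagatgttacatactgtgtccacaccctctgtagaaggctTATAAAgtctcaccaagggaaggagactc
Krt32: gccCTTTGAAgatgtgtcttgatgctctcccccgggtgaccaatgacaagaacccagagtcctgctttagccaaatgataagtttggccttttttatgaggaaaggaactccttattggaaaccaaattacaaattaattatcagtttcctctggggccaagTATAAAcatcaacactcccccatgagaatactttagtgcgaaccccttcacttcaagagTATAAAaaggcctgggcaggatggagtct
Both hold TATAAA 29 bases before the start, and Krt32 holds it once more, 88 bases before. LEF1/TCF letters begin 244 and 81 bases before the start in Krt31, the latter on the opposite strand, and 247 bases before it in Krt32.

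Neighbouring genes with unlike responses were also found in the Krtap1 subfamily. Krtap1-5 was at 4.46, 6.55 and 1.53 CPM in SA tumors and at 206, 222 and 146 CPM in WT penises, a log2 fold change of -5.60 ± 0.58 (SE, adjusted p = 0.000377). Krtap1-4, 1.53 kb away on the same strand, was at 12.4, 14.6 and 3.98 CPM in tumors and at 6.96, 6.84 and 3.01 CPM in normal tissue. Its groups overlapped, with SA tumor replicate 3 under 2 of the 3 WT penises (log2 fold change 0.86 ± 0.52 SE, adjusted p = 0.207). The transcripts share 3.28% of the windows of Krtap1-4 and 1.24% of those of Krtap1-5 with other genes.

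Their upstream 250 bases, at chr11:99581017-99581266 for Krtap1-5 and chr11:99583678-99583927 for Krtap1-4, both on the minus strand, follow with the same letters in capitals.
Krtap1-5: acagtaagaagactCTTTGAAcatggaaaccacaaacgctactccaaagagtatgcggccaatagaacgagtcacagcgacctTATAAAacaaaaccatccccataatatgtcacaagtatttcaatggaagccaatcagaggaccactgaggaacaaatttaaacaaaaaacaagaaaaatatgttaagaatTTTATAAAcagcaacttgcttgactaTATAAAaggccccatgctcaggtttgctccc
Krtap1-4: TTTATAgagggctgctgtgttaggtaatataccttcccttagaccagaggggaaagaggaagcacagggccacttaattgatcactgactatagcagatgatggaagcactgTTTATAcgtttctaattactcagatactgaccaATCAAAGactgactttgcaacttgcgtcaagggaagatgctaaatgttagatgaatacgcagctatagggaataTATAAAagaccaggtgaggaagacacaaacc
Each holds TATAAA 31 bases before the start. Further copies begin 167, 57 and 55 bases before it in Krtap1-5, where the last 2 overlap on opposite strands, and 250 and 138 bases before it, on the opposite strand, in Krtap1-4. LEF1/TCF letters begin 236 bases before the start in Krtap1-5 and 105 bases before it in Krtap1-4, where they are on the opposite strand.

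TATAAA was common to the promoters of these genes as a whole. RefSeq promoter sequences of 300 bases, from 250 before to 50 after the start, were at hand for 56 of the 67 members. The letters occurred on either strand in 44 of them, or 78.6%, against 13.6% of all 32851 promoters of that length. In 32 of 56, or 57.1%, they began 40 to 20 bases before the start, against 2.50% of all promoters. LEF1/TCF letters occurred in 23 of 56, or 41.1%, against 16.9%. Among the promoters of genes that fell, 25 of 29 held TATAAA and 12 held LEF1/TCF letters. Among those of tested genes past neither threshold or one alone, the numbers were 5 and 3 of 6. A match is a run of letters and was not tested as a binding site.

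Besides Krt32, Krtap12-1 and Krtap10-10 rose. Both lie on chromosome 10, and in human hair their subfamilies are found in the cuticle. Krtap12-1 was at 3.08, 2.05 and 1.10 CPM in SA tumors and at 0.226, 0.134 and 0.501 CPM in WT penises, low but without overlap, a log2 fold change of 2.86 ± 0.57 (SE, adjusted p = 0.0032). Its call was lost without SA tumor replicate 2 (2.86) and without WT penis replicate 1 (2.74) or 2 (2.46). Krtap10-10 was at 0.595, 0.563 and 0.365 CPM in tumors and at 0 in each normal library, so that it was at least 4.09-fold higher, taking 3 counts in each WT library as the floor (adjusted p = 0.00151). Of its windows, 41.1% also occur in other loci.

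Of the 20 members that were not tested, 4 had no count in any library and the other 16 reached at most 3.54 CPM. In 5 of these each tumor was above each normal sample, and in 1, Krtap19-5, each tumor was below. The share of all untested genes that separate in this way was not counted, so these numbers are descriptive. At such low levels the greater depth of SA tumor replicate 3 also makes any count more likely in that tumor. Krtap15 had 36, 107 and 20 counts in SA tumors and none in WT penises. Krtap15 was at 1.34, 3.54 and 0.162 CPM in these tumors, and its tumor mean was at least 13.5-fold higher by the same floor, taken per library. Krtap14, 2.86 kb from it, had 117 counts over the 3 tumors against 1 over the 3 normal samples, a ratio of 48.1 for counts pooled over each group and divided by the pooled depth (95% exact interval 8.46 to 1914, counting error only). The deepest tumor, SA tumor replicate 3, weighs most in such a ratio, and the plain means of the libraries were 1.04 CPM in tumors and 0.0111 CPM in normal tissue. Krtap10-4 had 95 against 3 counts, a pooled ratio of 13.0 (4.32 to 64.2) and means of 0.758 and 0.0373 CPM. Krtap24-1 had 40 against 1, a pooled ratio of 16.4 (2.78 to 665) and means of 0.326 and 0.0152 CPM. SA tumor replicate 2 was the highest for Krtap10-4, Krtap14 and Krtap15. Krtap9-5 had 2, 1 and 1 counts in tumors and 0 in normal tissue. Krtap10-4, Krtap14 and Krtap15 passed both thresholds once SA tumor replicate 3 was left out, and also in DESeq2. In edgeR with every sample and no filter on low counts, Krtap10-4 and Krtap14 passed them, but Krtap15 did not (adjusted p = 0.107).

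Within a library, some members kept their proportions and others did not. These pairs were chosen after their values were seen and were not tested. Krt31 to Krt85 counts stood at 0.545, 0.604 and 0.631 in SA tumors and at 0.585, 0.624 and 0.601 in WT penises, and Krtap3-1 to Krt31 at 0.645, 0.697 and 0.502 against 0.806, 0.699 and 0.686. Both ratios overlapped between the tissues, although each gene alone fell over 13-fold. Krtap6-1 to Krt31 stood at 0.0378, 0.0534 and 0.0204 in tumors and at 0.830, 0.694 and 0.739 in normal tissue, without overlap. Krtap1-4 to Krtap1-5 went the other way, at 2.77, 2.23 and 2.61 against 0.0338, 0.0308 and 0.0206.

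**Figure D4:**
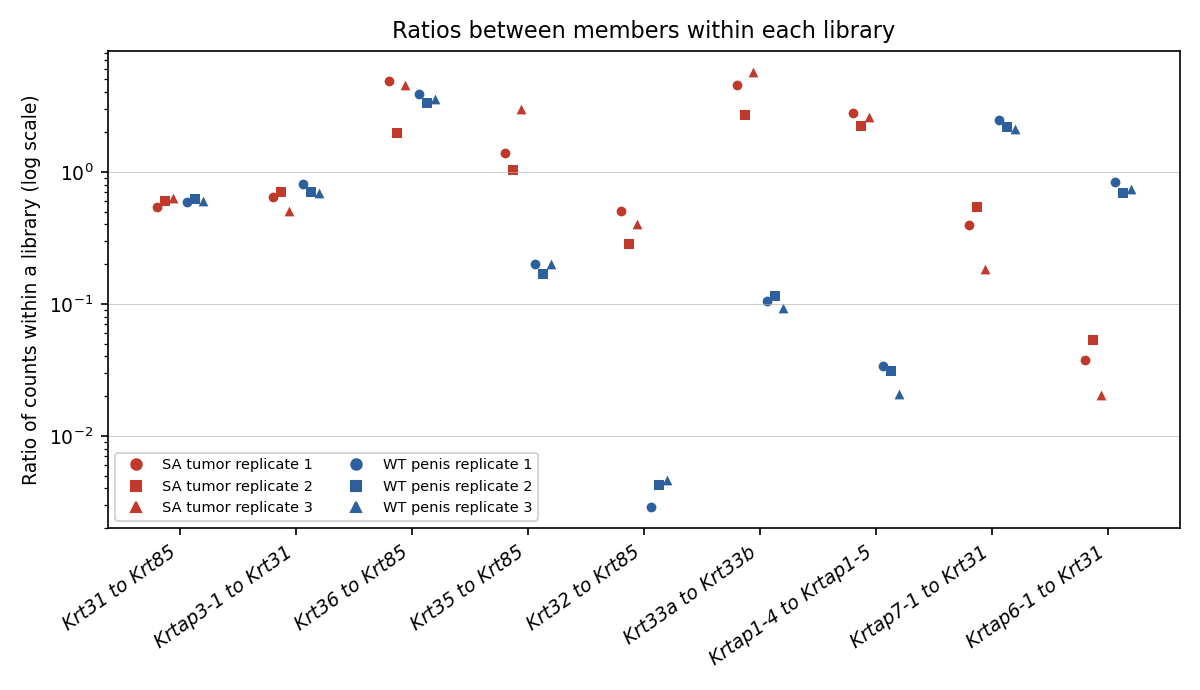
Ratio of the counts of 2 members within each library (y axis, log scale) for 9 pairs, in the 3 SA tumors (red) and the 3 WT penises (blue), with symbols for replicates. Krt31 to Krt85 lies between 0.545 and 0.631 in all 6 libraries, whereas Krt32 to Krt85 lies between 0.283 and 0.503 in tumors and between 0.00292 and 0.00466 in normal tissue.

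The order of the members by level changed with these falls. On the TPM scale (transcripts per 1000000), which corrects for transcript length, the highest in WT penis were Krtap7-1 at 1814 ± 294 TPM, Krt36 at 1778 ± 248 TPM and Krtap8-1 at 1765 ± 270.4 TPM (SD, n = 3), which did not differ beyond their spread. Krt84 at 1095 ± 107 TPM and Krtap13 at 1075 ± 168 TPM came next and likewise lay within their spread. In SA tumors Krt36 was the highest at 171 ± 107 TPM, followed by Krt33a at 87.0 ± 33.0 TPM, Krt35 at 68.1 ± 10.5 TPM and Krt84 at 61.3 ± 55.4 TPM, with overlapping spreads. Krtap7-1 was at 31.8 ± 23.9 TPM there and the tenth in order.

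The regulators of the hair shaft were not lower as a group. Of 22 listed genes, 21 were tested, 7 rose, 1 fell and 13 did not pass both thresholds, with a median log2 fold change of 0.22. Over all genes tested, 9.41% rose and 3.59% fell. The gene that fell was Hoxc13, a homeobox factor that activates hard keratin promoters in the hair matrix. It was at 3.86, 3.28 and 3.83 CPM in SA tumors and at 49.1, 46.7 and 40.05 CPM in WT penises, with little spread in either tissue (log2 fold change -3.63 ± 0.14 SE, adjusted p = 1.62e-06). Unlike the hard keratins, it was not lowest in SA tumor replicate 3. Foxn1, which acts with Hoxc13 in the hair and nail matrix, had a log2 fold change of -1.43. Vdr, the vitamin D receptor needed for hair cycling, had one of -1.36. Both were under the threshold on the fold but had an adjusted p under 0.01. The same held for Ovol1 (-0.86), Msx1 (-0.57) and Prdm1 (-0.39), which were lower, and for Gata3 (1.82), which was higher.

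Signals and Wnt effectors of hair growth were among those that rose. Lef1 was at 78.7, 57.6 and 51.1 CPM in SA tumors and at 0.859, 0.467 and 0.547 CPM in WT penises, a log2 fold change of 6.66 ± 0.27 (SE, adjusted p = 1.82e-06). Shh, the hedgehog ligand of the hair matrix, was at 116, 90.5 and 92.3 CPM against 0.362, 0.3004 and 0.319 CPM. Neither overlapped between the tissues, and each differed by far more than its spread. Lhx2 rose by 6.62, Wnt10b by 5.03, Bmp2 by 3.99, Tcf7 by 3.27 and Bmp4 by 2.20 on the log2 scale.

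Genes listed as cross-linking and envelope proteins of the hair shaft moved in both directions. Of 20 listed genes, all were tested, 6 rose and 3 fell, with a median log2 fold change of -0.84. Over all genes tested, 9.41% rose and 3.59% fell. Under the threshold on the fold but with an adjusted p under 0.01, Dsc2 (-1.29), Dsp (-1.23), Pkp1 (-1.16), Jup (-1.06), Psors1c2 (-1.26), Crnn (-1.95) and Ivl (-1.92) were lower. The list summed to 9896 to 11991 CPM in SA tumors and to 20784 to 22088 CPM in WT penises. Padi3, which converts arginine to citrulline in hair proteins, was at 218, 216 and 109 CPM in SA tumors and at 0.769, 0.401 and 0.364 CPM in WT penises (log2 fold change 8.48). The genes for trichohyalin (Tchh) and its relative Tchhl1 rose by 6.43 and 7.74, and S100a3, a calcium-binding protein of the hair cuticle, and Gprc5d, a receptor of the hair and nail matrix, by 4.99 and 7.84. Padi1 rose by 2.17. Dsg4, the desmoglein of the hair shaft, fell by 2.28 and Selenbp1 by 2.31. Loricrin (Lor) also fell by 2.28. Lor and Ivl belong as well to the list of cornifying and wound keratinocyte genes given below.

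**Figure D5:**
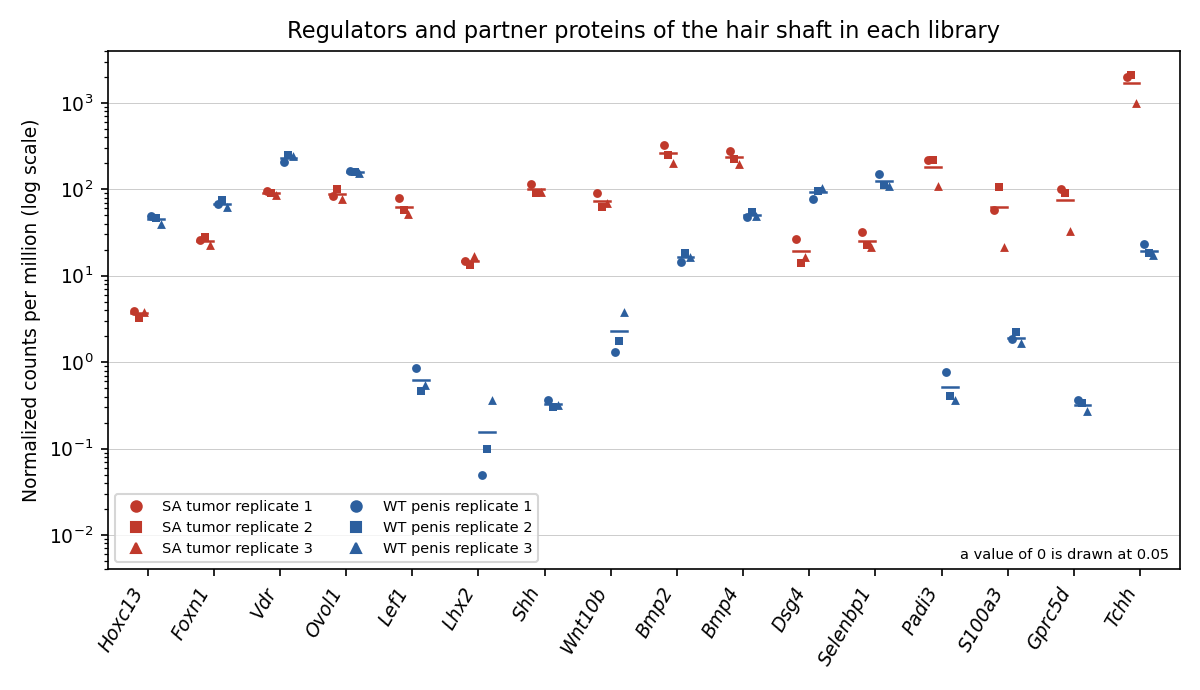
Normalized counts per 1000000 (CPM, y axis, log scale) of 16 regulators and partner proteins of the hair shaft in each of the 3 SA tumors (red) and 3 WT penises (blue), with symbols for replicates and bars for group means. Hoxc13 lies between 3.28 and 3.86 CPM in tumors and between 40.05 and 49.1 CPM in normal tissue, whereas Lef1, Lhx2, Shh, Padi3 and Gprc5d lie above 10 CPM in every tumor and below 1 CPM in every normal sample.

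Keratins of the inner root sheath, the sleeve around the growing hair shaft, went opposite to most hard keratins, though not to Krt32 and Krt33a. All 10 listed genes of this sheath and its companion layer rose (median log2 fold change 8.43). Their summed level was 2880.5, 3311 and 1410.1 CPM in SA tumors and 33.9, 26.2 and 24.6 CPM in WT penises. Of this sum Tchh made up 1976, 2071 and 996 CPM in tumors, and Krt73, an inner root sheath keratin, 528, 665 and 244 CPM. Like the hard keratins, all 10 were lowest in SA tumor replicate 3 among the tumors, and Krt26 had no count in WT penis. Tchh belongs to this list and to that of the cross-linking genes.

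Markers of other cell types moved with the comparison as well, and their part in the levels of the members was not tested. Although both tissues are labelled epithelium, 6 of 7 muscle genes were tested and 5 fell, and their sum ranged from 31.0 to 102 CPM in SA tumors and from 1285 to 1721 CPM in WT penises, with Myh4 at 0 in normal tissue. Of 6 basal keratinocyte genes, 2 fell, Krt15 and Col17a1 (9309 to 11622 against 20048 to 22277 CPM). Krt5 (log2 fold change -1.21) and Trp63 (-0.82) were lower at an adjusted p under 0.01 but by less than 4-fold. Of 9 cornifying and wound keratinocyte genes in the files, 2 rose and 1 fell (23888 to 30964 against 52619 to 60042 CPM). Under the threshold on the fold but with an adjusted p under 0.01, Krt1 (-1.63), Krt10 (-1.97) and Ivl (-1.92) were lower and Krt16 (1.22) higher. Of 4 mucosal epithelium genes, 1 fell (679.8 to 1207 against 1865 to 2496 CPM), and Krt13 (-1.80) was lower at an adjusted p under 0.01 only. None of 6 fibroblast genes (1285 to 4763 against 6073 to 6355 CPM) and none of 4 endothelial genes (117 to 179 against 176 to 209 CPM) passed both thresholds, although Dcn (log2 fold change -1.80) and Pecam1 (-0.92) had an adjusted p under 0.01. Of 6 dermal papilla genes, Hhip rose and Rspo2 fell (182 to 264 against 76.4 to 105 CPM), and Crabp1 (1.92) was higher at an adjusted p under 0.01 only. Of 8 sebaceous and preputial gland genes, 6 were tested and 2 rose (222 to 292 against 82.7 to 94.8 CPM), with Mup4 at 0 in every library. Scd1 (1.51), Awat2 (1.40), Soat1 (1.76) and Plin2 (1.27) were higher at an adjusted p under 0.01 only. Of 7 melanocyte genes, 3 were tested and 1 rose, with sums of 12.1 to 16.9 against 11.3 to 13.1 CPM, and Tyr had no count in any library.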

How the data were processed

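RNA-seq libraries (stranded, 76-base paired ends) of 3 SA tumors and 3 WT penises were compared. The study counts them as 3 biological samples of each genotype. TopHat alignment to mm10 and counting by HTSeq were done by the authors; how reads that fit several genes were treated is not given in the sources used here. The deposited counts are raw, per RefSeq transcript with its symbol. The authors also deposited FPKM and TPM values computed from these counts; TPM was used for levels between genes, and FPKM was checked and not used. Each symbol was represented by its row with the highest mean count, which left 24063 symbols of 33068 rows, and every member had 1 row.

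Counts were tested with edgeR 4.0.16 (R 4.3.3). Genes were kept by filterByExpr (16336 genes; 0.380 CPM, or 10 counts in the median library, in 3 or more samples, and 15 or more counts in all), libraries were scaled by TMM, and groups were compared by the quasi-likelihood F-test (robust), with p adjusted by Benjamini-Hochberg over all genes tested. Both thresholds were those of the study, 0.01 for the adjusted p and 2 for the size of the log2 fold change. The SE is the log2 fold change divided by the square root of F. CPM are counts per 1000000 after TMM scaling. DESeq2 1.42.0 and limma 3.58.1 (voom) were alternatives, as were other scalings, filters, a test against the fold threshold, summed rows, a replicate block and leaving out each sample.

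Members and lists were chosen with earlier results of these data known. The genes named are the hard keratins, the 12 members per direction with the largest change past both thresholds in all 9 sample pairs and 100 or more counts on average, the most abundant member of each subfamily and the listed genes; any other member was named after its values were seen. Of the 67 members, 66 matched RefSeq tables (GRCm38.p6) by accession, and Krt85 had no entry. RefSeq lists the files' Krt83 as Krt87 and Krtap16-1 as Krtap19-2. Subfamilies were placed in classes from general knowledge, and Krtap16 and Krtap31 were not classed. Shared windows are stretches of 76 bases of a transcript found in another gene's transcripts. Samples with the same replicate number had residuals with a mean correlation of -0.07 (-0.13 to 0.02), and the numbers were not treated as pairs. The fits were tested on simulated data.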

Additional observations from a re-analysis of the deposited data

How the results depend on the processing

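Against 3 genes that rose and 35 that fell, DESeq2 gave 6 and 37 and limma-voom 1 and 36. No filter on low counts gave 5 and 30, and a mean of at least 50 counts 2 and 34. In edgeR, relative log expression (RLE) scaling, TMM computed without the members, and summed transcript rows each gave 3 and 35. A test against the fold threshold itself (glmTreat) called 0 that rose, where all 3 had an unadjusted p under 0.05, and 16 that fell. Leaving out 1 sample gave 1 to 6 that rose and 26 to 36 that fell. The most calls of a fall were lost without WT penis replicate 2 (26 left) and without SA tumor replicate 1 (27 left), and those that rose numbered 1 without WT penis replicate 1 and 6 without SA tumor replicate 3. With the replicate number as a block, 3 rose and 36 fell; the numbers do not pair the samples. Among the 42 members with at most 10% shared windows, an alternative chosen after seeing the data, 2 rose and 22 fell of 30 tested. Over 15 refits, 25 of the 38 called members lost their call at least once, 64 times in all, of which 22 were in glmTreat. In the 14 others, 15 members lost a call, most often Krtap1-3, Krtap4-2, Krtap4-6, Krtap4-7 and Krtap4-9, and 23 kept it; Krtap10-10 and Krtap20-2 lost theirs there only because the stricter filter left them out. The direction of the 38 reversed in 0 refits. Krt32 and Krtap12-1 lost their calls in limma-voom, with log2 fold changes of 2.48 and 2.59. Near-zero changes of regulators turned: with 1 sample left out, Bmpr1a ranged from -0.0124 to 0.1299, Dlx3 from -0.048 to 0.2192 and Hoxd13 from -0.3007 to 0.2669, and with the replicate block Hoxd13 stood at -0.0111; the cause was not tested. The filter removed the 20 members that were not tested.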
